A study of Mus musculus with 10 samples.

Results

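Tes, the gene of testin, is 1 of 8726 genes that the platform annotation lists, and it has 2 of the 9078 listed probes. They carry the sequence identifiers NM_011570 and BC003808 and share the Entrez ID 21753. The gene had been chosen because earlier work on these arrays placed it at the low end of the comparison of collagen with control. Its ratios are therefore given as a description, with no test. Both probes are among the 4125 probes with a ratio in all 3 replicates.

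Testin is a scaffold protein with a PET domain and LIM domains, zinc-binding modules that dock other proteins. It is found at focal adhesions, the sites where integrins couple the extracellular matrix to actin, along actin stress fibres and at contacts between cells. It binds zyxin, talin and Mena, the product of Enah, and it has been studied as a candidate tumour suppressor. The RefSeq gene table of GRCm38.p6 places Tes on chromosome 6 and lists the transcript NM_207176.3 for it. Neither probe identifier is in that table, so whether the probes address the same part of the transcript was not tested.

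RNA came from the prefrontal cortex of male DBA/1 mice aged 8 weeks, an inbred strain used for collagen-induced arthritis. The collagen mice were given 100 µl of type II collagen with 100 µl of Complete Freund's adjuvant and the control mice 200 µl of adjuvant, and both arms were given LPS at day 24. The ratio therefore holds collagen and the adjuvant dose together. Each of 10 arrays printed in-house carried collagen and control RNA side by side, in 5 dye-swap pairs that the titles number 1, 2, 3, 1 and 2. Pairs 1 and 4 were replicate 1, pairs 2 and 5 replicate 2, and pair 3 replicate 3. The series text describes 3 biological replicates. The labels do not give the number of mice per replicate, or whether pairs with the same number share RNA. How much of the spread lies between mice is therefore not known. The files do not say which dye the channel letters stand for, and A was read as Cy3 here. Every direction is therefore likely rather than settled, and with the letters the other way round every sign would reverse.

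Each array was read 3 times at rising gain, and 44.5% to 85.1% of its spots had a signal in both channels. Across the tested probes the 3 replicates correlated at 0.124 on average. Of the 4125 probes fitted with limma, 0 were called after Benjamini-Hochberg adjustment at 0.05. Without adjustment the same threshold gave 170 lower and 98 higher probes, together 6.5%. All 5 neuronal markers with a probe had a signal in both arms in all replicates. In bulk cortex, fewer cells of a type and less RNA per cell cannot be told apart.

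The probe NM_011570 read lower in collagen than in control cortex on every array. With collagen on Cy5, its log2 ratio of collagen over control was -0.07, -0.83, -0.85, -0.40 and -0.58 in pairs 1 to 5. With collagen on Cy3, it was -0.50, -0.54, -0.70, -0.24 and -0.10 in the same pairs. The ratio was thus below 0 on 10 of 10 arrays, in both dye orientations, although its size differed several-fold between arrays. Among the 1845 probes measured on all arrays, 2 were below 0 on all of them, or 0.108%. Nothing is read from that share, since the gene was chosen on this comparison.

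**Figure D1:**
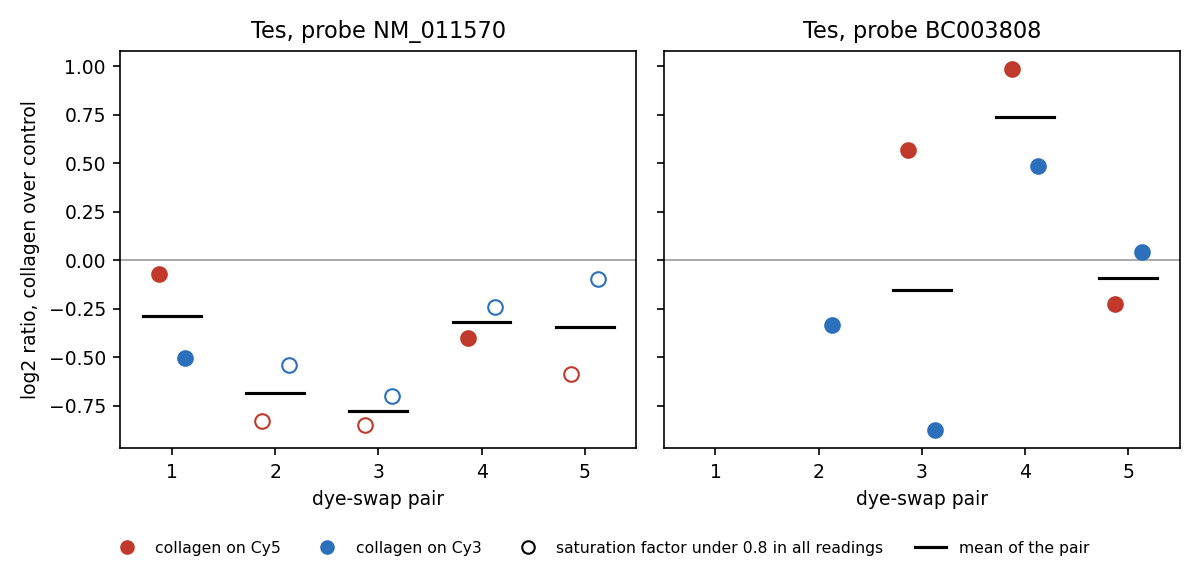
Log2 ratio of collagen over control on each array for the Tes probes NM_011570 (left) and BC003808 (right), by dye-swap pair, with collagen on Cy5 in red and on Cy3 in blue. Bars are pair means, and open points are arrays whose saturation factor stayed under 0.8 in all 3 readings. All 10 points of NM_011570 lie below 0, and the 7 points of BC003808 lie on both sides of it.

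The pair means of NM_011570 were -0.29, -0.68, -0.77, -0.32 and -0.34. Pairs 2 and 3 were the lowest, and the other 3 pairs lay close to each other. All 5 were below 0, as they were in 5.96% of the 1845 probes. Over the replicates the ratio was -0.30, -0.51 and -0.77, all 3 below 0 as in 21% of the tested probes. It had a mean of -0.53 ± 0.24 (SD, n = 3), or 0.693-fold.

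NM_011570 was among the brighter spots on every array in reading 1. There, in units of 1000, its intensity in the collagen channel was 388 at the lowest, 1175 at the median and 5085 at the highest of 10 arrays. In the control channel it was 616 at the lowest, 2250.4 at the median and 6554 at the highest. The arms overlapped widely across arrays, and before normalisation the collagen channel was the dimmer on 7 of 10 arrays. These were 2 of 5 arrays with collagen on Cy5 and 5 of 5 with collagen on Cy3. Relative to the median of each channel and averaged over the readings, its log2 level was 3.11 ± 1.34 in collagen and 3.54 ± 1.25 in control cortex (SD, n = 3 each). In replicates 1 to 3 it was 3.76, 1.57 and 4.01 in collagen, and 4.25, 2.10 and 4.26 in control cortex. Both arms were read on the same spots, so the spread of the level over replicates is not the spread of their difference. The spot was well formed, with a signal over local background of at least 6.59 in collagen and 9.09 in control channels and a quality score of 0.916 to 0.997.

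The brightness of NM_011570 did not follow the gain. The median intensity of all probes was 1.60 to 4.55 times as high in reading 3 as in reading 1 across arrays. For this probe the same ratio was 0.189 to 1.96 in the collagen channel and 0.232 to 1.64 in the control channel. It dimmed with rising gain on 5 of 10 arrays in the collagen channel and on 8 of 10 in the control channel. Its lowest percentile among the spots of a reading was 79.0 in collagen and 85.4 in control channels at reading 1, and 40.4 and 41.6 at reading 3.

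**Figure D2:**
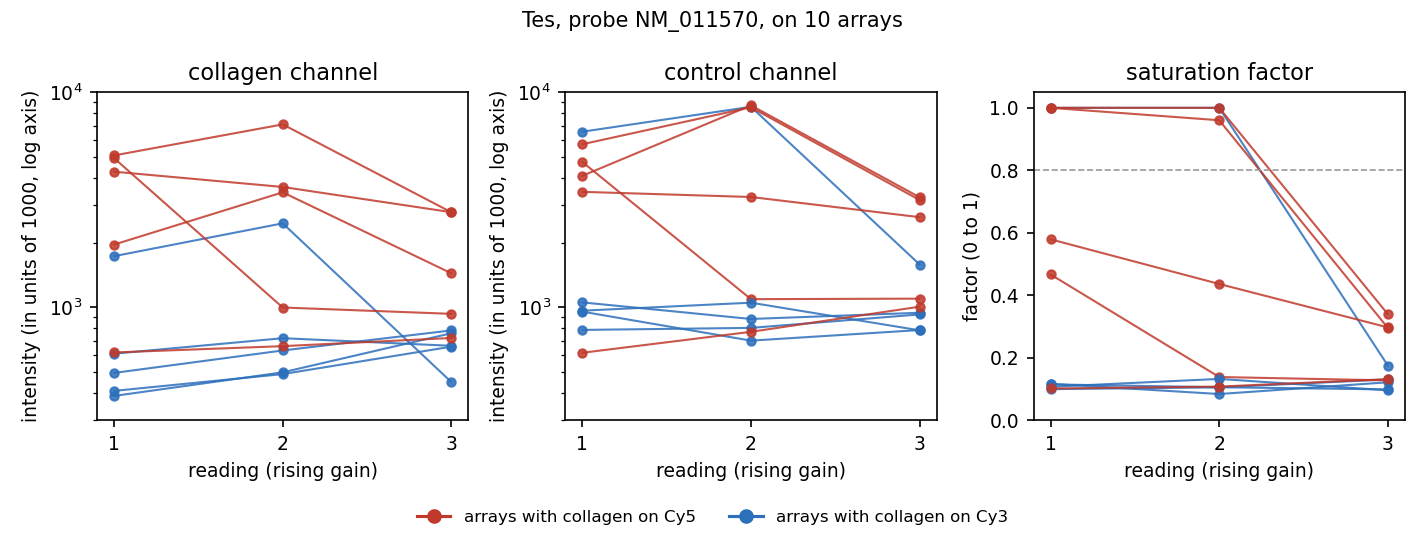
Intensity of the Tes probe NM_011570 in the collagen channel (left) and the control channel (middle), in units of 1000 on a log axis, and its saturation factor (right), in the 3 readings of each of 10 arrays. Lines join the readings of an array, and the dashed line marks a factor of 0.8. The factor is under 0.8 in reading 3 on all 10 arrays, and reading 3 is dimmer than reading 1 on 5 arrays in the collagen channel and 8 in the control channel.

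The deposited files give each spot a saturation factor between 0 and 1 that their headers do not define. For NM_011570 it was 0.0833 to 1. It was 0.8 or above in 6 of 30 readings and below 0.2 in 18 of 30. The 6 readings were the first and second of both arrays of pair 1 and of the array of pair 4 with collagen on Cy5. On the other 7 arrays the factor stayed under 0.8 at every gain. Such spots were rare, at 0.139% to 1.17% of the spots of an array with both channels measured in all 3 readings. At the median, their intensity in channel A also grew less with gain than that of the other spots. Their median log2 intensity in channel A at reading 3 over reading 1 was -0.58 to 0.13 across arrays, against 0.95 to 2.19 for the other spots. Channel B was not summarised in this way, and single spots could differ from the median.

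The authors' deposited values leave these spots out. Of 287 cases of a spot and an array with a factor under 0.8 in all readings, 0 had a value there. Of the other spots measured in all 3 readings, 93.4% to 98.6% had one. For NM_011570 this leaves 3 arrays, and on all 3 the authors' value was below 0. It was -0.16 and -0.15 on the arrays of pair 1 and -0.04 on the array of pair 4, on a log scale of unstated base.

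In the readings with a factor of 0.8 or above, NM_011570 was below 0 as well. In the first and second readings, its log2 ratio was -0.11 and -0.14 on the pair 1 array with collagen on Cy5, and -0.45 and -0.42 on its dye swap. On the pair 4 array it was -0.55 and -0.62. All 6 are below 0, and they come from replicate 1 alone. With these readings only, pair 1 is the one pair with both arrays, and its mean was -0.28. The mean of -0.53 therefore rests on readings with a factor under 0.8 alone in replicates 2 and 3, and in part in replicate 1. The ratio of replicates 2 and 3 without them is not known. Whether saturation had a part in the low ratio was not tested.

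The 3 readings gave NM_011570 similar medians, but they differed within single arrays. Its median over the 10 arrays was -0.55 in reading 1, -0.56 in reading 2 and -0.50 in reading 3. It was below 0 on 10, 9 and 8 of the arrays at these gains, so the exceptions were at the higher gains. On the pair 5 array with collagen on Cy3, for example, its log2 ratio was -0.52, 0.05 and 0.18 in readings 1 to 3. The mean over replicates was -0.63 with reading 1 only, -0.51 with reading 2 only and -0.45 with reading 3 only.

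Other probes with a low factor on as many arrays were few. Of the other tested probes, 2 had a factor under 0.8 in all readings on 7 arrays or more, and the annotation gives both of them several gene symbols. Their log2 ratios were -0.06 ± 0.36 and 0.05 ± 0.08 (SD, n = 3 each). The first varied more between replicates than NM_011570, so its mean is loosely set.

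BC003808 was a dim spot on most arrays, with no steady direction. The exception was the pair 4 array with collagen on Cy5, with a mean percentile of 88.6 in the collagen and 87.6 in the control channel. Both channels were measured in 18 of its 30 readings, 1 channel in 8 and no channel in 4. In reading 1, its intensity in the collagen channel was 33.1 at the lowest, 104 at the median and 290.4 at the highest of the 6 arrays measured, in units of 1000. In the control channel it was 45.1 at the lowest, 67.3 at the median and 268 at the highest. The arms overlapped, and the collagen channel was the dimmer on 2 of the 6 arrays. In 16 of the 18 readings the corrected signal was smaller than the local background in at least 1 channel. Its quality score was 0.0943 to 0.305, and its saturation factor was 0.964 to 1.

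Over the 7 arrays with a value, BC003808 gave 3 ratios below 0 and 4 above. With collagen on Cy5, its log2 ratio was 0.57, 0.99 and -0.23 in pairs 3, 4 and 5. With collagen on Cy3, it was -0.34, -0.87, 0.49 and 0.04 in pairs 2 to 5. Pair 1 had no value, and in pair 3 the dye swaps pointed in opposite directions. Pair means could be formed for pairs 3, 4 and 5 and were -0.15, 0.74 and -0.09. Replicates 1 and 2 thus rest on 1 pair each. The authors' deposited values for the same 7 arrays were -0.03, 0.15 and -0.15 with collagen on Cy5 and 0.20, -0.05, 0.15 and 0.04 with collagen on Cy3. They differ in sign from the ratios here on the pair 2 array and on the pair 3 array with collagen on Cy5.

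The mean of BC003808 over the replicates was 0.16 ± 0.50 (SD, n = 3), or 1.12-fold. The spread was 3 times as large as the mean, and its SD was above that of 96.2% of the tested probes. The replicate values were 0.74, -0.09 and -0.15, so the positive mean comes from replicate 1. Without that replicate it was -0.12. Relative to the channel median its log2 level was -0.11 ± 0.85 in collagen and -0.41 ± 0.37 in control cortex (SD, n = 3 each).

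The probes of Tes had opposite signs on most arrays that measured both. Both had a value on 7 arrays, and they had the same sign on 3 of them. They had the same sign in 2 of 3 pairs and in 2 of 3 replicates. NM_011570 minus BC003808 was -1.04, -0.42 and -0.62 in replicates 1 to 3, with a mean of -0.69 ± 0.32 on the log2 scale (SD, n = 3). NM_011570 was the lower probe in every replicate, and the gap was largest in replicate 1, where BC003808 was high. Over the 7 arrays their ratios correlated at 0.24, a description of arrays that share RNA within pairs.

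The gap between the probes was set beside that of other genes. Of 76 genes with exactly 2 tested probes, Tes included, 46 (60.5%) had the same sign in both. The gap was 0.69 in Tes, against a median of 0.14 and a 95th percentile of 0.40 over the 76. Tes was chosen for a low value in this comparison and the other genes were not, so nothing is read from its place among them. With a separate loess per grid the gap in Tes was 0.36, and no gap of the other genes is given for that setting. It lies between a probe with a saturation factor under 0.8 in 24 of 30 readings and a probe close to its background, so its size is loosely set, and nothing is tested here.

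The place of the probes on the array was set beside their ratios. The array has 12 rows and 4 columns of grids. NM_011570 lies in grid row 5, grid column 3, and the other tested probes of that grid had a median log2 ratio of -0.04 (n = 109). The 3 tested probes touching it had a median of 0.05. Its own ratio minus the median of its grid was -0.28, -0.61 and -0.64 in replicates 1 to 3. The median of its grid was nearer to 0 than NM_011570 in each replicate, and it covers spots of every brightness. Since the gene was chosen for a low ratio, nothing is read from that. With a separate loess per grid the mean of NM_011570 was -0.35, against -0.53. In pair 4 the probe was at -0.32, and the median of the 3 measured touching spots was as low, at -0.37. These spots ranged from -0.38 to 0.12, so they were not all as low as the probe.

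**Figure D3:**
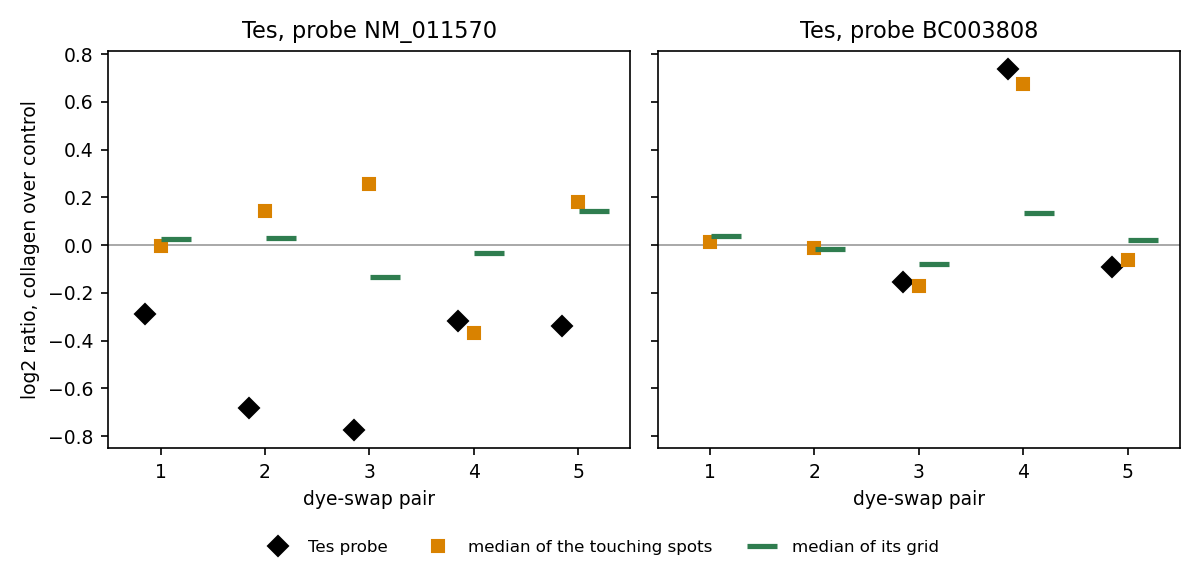
Log2 ratio of collagen over control for the Tes probes NM_011570 (left) and BC003808 (right) in each dye-swap pair (diamonds), beside the median of the touching spots (squares) and of the other probes of the grid (green bars). NM_011570, chosen for its low value, lies below its grid in all 5 pairs, and BC003808 lies beside its touching spots in pairs 3 to 5.

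BC003808 lies in grid row 1, grid column 4, in the top row of grids. The median log2 ratio was -0.02 in its grid (n = 89) and -0.15 over that row of grids (n = 306). In pair 4, where the probe stood at 0.74, the 3 measured spots touching it had a median of 0.67 and a range of 0.47 to 0.97. In pair 3 the probe was at -0.15 and the touching spots at -0.17, and in pair 5 at -0.09 and -0.06. The touching spots ranged over -0.33 to 0.04 in pair 3 and over -0.24 to -0.06 in pair 5. In these 3 pairs the probe thus lay close to the median of the spots beside it, though single spots differed.

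Likeness was also measured across arrays. Over the 7 arrays of BC003808, the most alike of 1978 probes were Canx, the chaperone calnexin of the endoplasmic reticulum, at a correlation of 0.96, and Gcsh, of the glycine cleavage system, at 0.94. Both touch BC003808 on the array. Kcnip1, a subunit that binds potassium channels, and Ppp3cc, a catalytic subunit of calcineurin, reached 0.94, and Usp54 0.93. Of the 1978 probes, 76 (3.84%) exceeded 0.8. The median correlation was 0.95 for the 2 touching probes, 0.58 for 46 probes of the same grid and 0.09 over all. With a separate loess per grid, the mean log2 ratio was 0.013 for BC003808 and -0.35 for NM_011570, which stayed below 0 on 10 of 10 arrays. Whether position on the slide had a part in the ratios was not tested.

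For NM_011570 the probes most alike over 10 arrays were spread over the array. They were Cort, the neuropeptide cortistatin, at 0.88, Prrg2 at 0.82, Cops4, a subunit of the COP9 signalosome, at 0.81, a probe of Actb, cytoplasmic beta actin, at 0.80, and Katna1, a microtubule-severing enzyme, at 0.78. None of them touches it. Of 1842 probes, 3 (0.163%) exceeded 0.8. The median correlation was -0.24 for the 2 touching probes, 0.06 for 60 probes of the same grid and 0.004 over all. The mean log2 ratios were -0.05 for Prrg2, -0.01 for Cops4, -0.07 for the Actb probe and -0.20 for Katna1, and 0.00 for Cort. Katna1 was the lowest of the 5. All 5 were nearer to 0 than the mean of NM_011570, which was chosen for its low value, so nothing is read from that. The Actb probe had a low saturation factor on 5 of the 10 arrays.

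A dye effect, the part of a ratio that follows the dye and not the sample, was tested for both probes, since it did not enter the choice of the gene. It was 0.28 for BC003808 (SE 0.17, adjusted p = 0.390 by limma) and -0.07 for NM_011570 (SE 0.12, adjusted p = 0.778). Neither passed, against 1.79% of all probes tested, and neither had an unadjusted p under 0.05, against 20.4% of all. A miss does not show that there was no dye effect, and for BC003808 it was larger than the mean ratio.

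Tes works with proteins whose genes were looked up on the same arrays. Of 8 direct partners of testin, 4 had a probe. The actin-binding membrane skeleton protein spectrin, through Sptan1, was the one partner with a ratio in all replicates, at -0.03 ± 0.08 (SD, n = 3). Grip1, a scaffold of glutamate receptors, Vasp, a promoter of actin filament growth, and Tln1, which links integrins to actin, were measured on 4, 2 and 4 arrays and were not tested.

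Of 77 focal adhesion and actin genes, 28 were tested, through 30 probes. By limma, 0 passed after adjustment, as over all probes (0%). At an unadjusted p under 0.05, 2 of 30 were lower and 0 higher, against 4.12% lower and 2.38% higher of all tested probes. A ratio below 0 was found for 21 of 30, against 54.5% of all. The list's median log2 ratio was -0.09, and that of all tested probes was -0.02. Over the probes tested in each setting, the list's median was -0.02 without replicate 3 and -0.05 with a separate loess per grid. Without replicate 3 the probes tested go beyond these 30.

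The 3 lowest members were Git2, a scaffold that recruits Pak kinases to adhesions, at -0.30 ± 0.18, Csk, the kinase that restrains Src, at -0.25 ± 0.09, and Ajuba, a LIM protein of adhesions, at -0.24 ± 0.15 (SD, n = 3 each). The 3 highest were Itga3, an integrin subunit, at 0.21 ± 0.32, Pfn1, the actin monomer binder profilin, at 0.18 ± 0.27, and Cfl1, the actin-severing protein cofilin, at 0.14 ± 0.11. Git2 and Csk are the members with an unadjusted p under 0.05. They lie in grid rows 1 and 2, and with a loess fitted to each grid their ratios were -0.09 and -0.08. NM_011570, chosen for its low value, stood at -0.53, and at -0.28 with saturation factors of 0.8 or above only. The value of -0.28 rests on pair 1 alone and the mean of Git2 on 3 replicates, so they are not set in order. Git2 was at -0.20 in replicate 1.

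**Figure D4:**
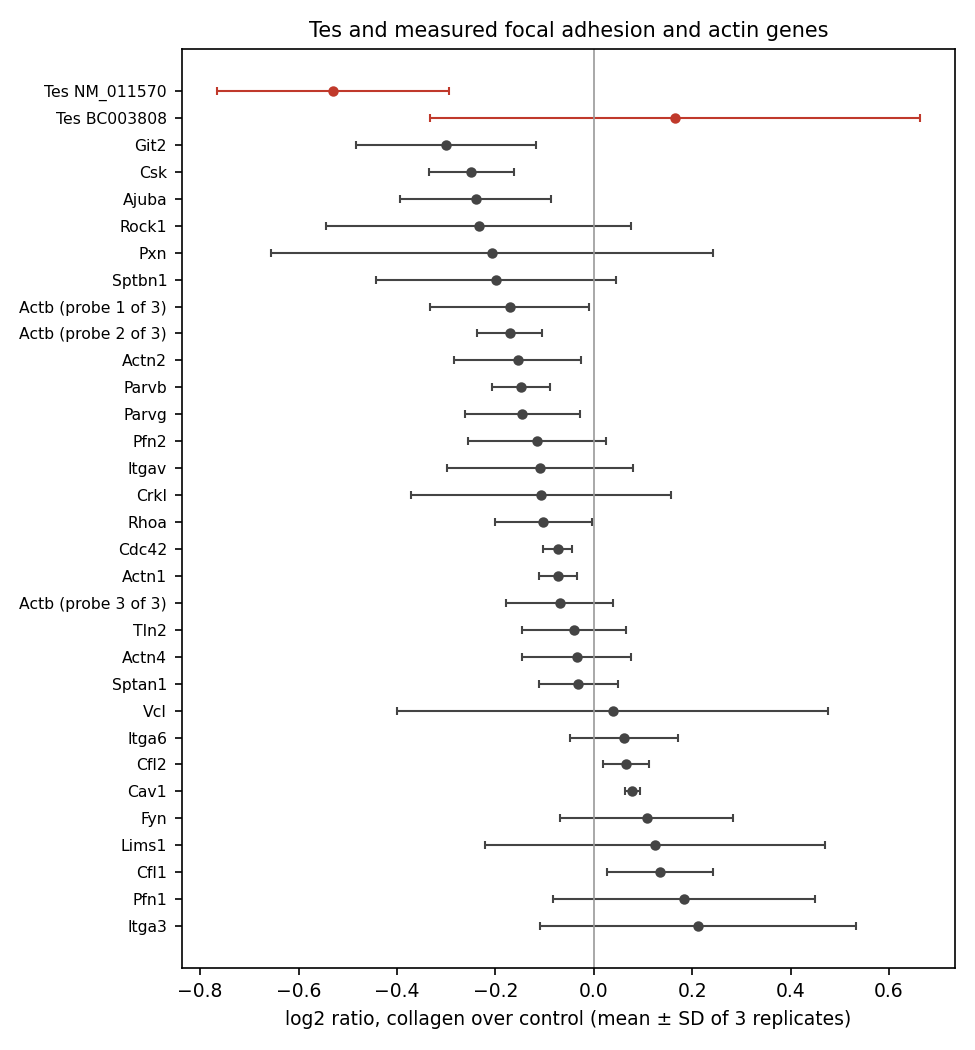
Log2 ratio of collagen over control for the Tes probes (red) and the 30 tested probes of focal adhesion and actin genes (grey), in order of their mean. Points and bars are the mean ± SD of 3 replicates. NM_011570 is drawn at -0.53 from all its readings, most of them with a saturation factor under 0.8.

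The other proteins with a PET domain had no probe, at 0 of 5 genes. Of 63 genes of the wider PET and LIM group, 11 were tested. At an unadjusted p under 0.05, 2 of 11 were lower and 0 higher, against 4.12% lower and 2.38% higher of all tested probes, and 0 passed after adjustment, as over all (0%). The median log2 ratio was -0.17, with 9 of 11 below 0, against 54.5% of all. Over the probes tested in each setting, the median was -0.03 without replicate 3 and -0.03 with reading 1 only. It was -0.04 with a separate loess per grid and 0.02 with collagen on Cy5 only. Without replicate 3 the probes tested go beyond these 11, so that value does not show what replicate 3 did to them. The lowest were Lasp1, a LIM protein of actin filaments and adhesions, at -0.43 ± 0.30, Ajuba, and Lmx1b, a LIM homeodomain transcription factor, at -0.24 ± 0.09 (SD, n = 3 each). The highest were Lims1, a LIM adaptor of integrin-linked kinase, at 0.12 ± 0.35, Lmx1a at 0.10 ± 0.08 and Csrp1 at -0.01 ± 0.10. Lasp1 and Lmx1b, the 2 that passed unadjusted, lie in grid rows 2 and 1 and stood at -0.20 and -0.15 with a loess fitted to each grid.

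The genes beside Tes on its chromosome gave few values. Of the 10 protein-coding genes on each side, 7 had a probe and 2 were tested. Cav1, the caveolin of plasma membrane pits and the nearest gene with a probe on the side after Tes, stood at 0.08 ± 0.02. Met, the receptor of hepatocyte growth factor, stood at 0.17 ± 0.21 (SD, n = 3 each). Both were above 0, and neither passed at an unadjusted p under 0.05. The direction was not stable, and Cav1 was at -0.04 with a separate loess per grid. The list's median, over the probes tested in each setting, was below 0 in 4 of 24 alternatives. Tfec, the nearest with a probe on the other side, was measured on 4 arrays and not tested.

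Markers of other cell types were read beside the ratio of NM_011570. The 5 neuronal markers all had a mean below 0, against 54.5% of all tested probes, with a median of -0.15. Camk2a, a kinase of excitatory neurons, was at -0.37 ± 0.10 (SD, n = 3) and was below 0 in all 3 replicates. The inhibitory markers Gad2 and Gad1 were below 0 in replicate 3 alone, at -0.78 and -0.42. Syt1 was at 0.06 in replicate 2 and at -0.82 in replicate 3. With a loess fitted to each grid, Camk2a was at -0.23, Snap25 at -0.18 and Syt1 at -0.13. In that setting Gad2 was at -0.03 and Gad1 at 0.08, so the shared direction was not kept. All 3 tested markers of mural cells, fibroblasts and meninges had a mean below 0, with a median of -0.28. Pdgfrb was below 0 in all 3 replicates, while Col1a2 was at 0.18 in replicate 2 and Dcn at 0.20 in replicate 3. With a loess fitted to each grid, Pdgfrb was at -0.14 against a mean of -0.38, and Col1a2 at -0.12 against -0.28. Dcn was at -0.08 in that setting, against -0.04. Of 7 endothelial markers, 0 were tested. Astrocytes, oligodendrocytes and microglia had 1, 1 and 2 tested markers, with medians of 0.06, -0.08 and -0.11. Their part in the ratio of Tes was not tested.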

How the data were processed

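Per the file headers, each deposited reading holds a background-corrected spot intensity, a local background, a flag, a quality score, a spot area and a saturation factor, a fraction, for channels A and B. No source used here names the scanner or image software. The authors' deposited values are scores, log ratios of unknown base, 1 for each spot on an array. The table is centred near 0 and runs as collagen over control if channel A is Cy3. Background was higher in channel A on all 10 arrays, by 1.10 to 2.97 times.

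Spots flagged X, Z or Y, or at 0, were left out. Log2 ratios were normalised per reading by global loess (span 0.3, limma 3.58.1, R 4.3.3) and averaged over 3 readings, the arrays of a pair (both needed) and the pairs of a replicate. The 4125 listed probes with 3 replicates were fitted with lmFit and eBayes, two-sided, with Benjamini-Hochberg adjustment. On simulated data, 72% of 200 probes changed by 1 log2 unit were recovered. The noise was drawn at the level of the replicates from the SD of each probe, so readings, saturation, dye and place on the array had no part in it. Smaller changes were not simulated, so the share does not say how many of those would be missed. Symbols were updated through Entrez IDs. Alternatives changed the background correction, normalisation, readings, filters, replicates and dye orientation.

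The gene, the lists and the tests were chosen with earlier results of these data known. The text names the testin partners with a probe, the 3 highest and 3 lowest tested members of each list, the nearest neighbours with a probe and the 5 probes most alike. No set test was made, and no p is given for the collagen ratio of Tes. No probe or protein sequence was available to print.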

Additional observations from a re-analysis of the deposited data

How the results depend on the processing

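Over 24 alternatives the collagen ratio of NM_011570 stayed below 0, at -0.64 to -0.28 on the log2 scale and -0.15 in the authors' deposited values. It moved by more than 1 SD to -0.28 with saturation factors of 0.8 or above only, a setting chosen after seeing the data. That value and the authors' rest on replicate 1. The log base of the authors' values is unknown, so the sizes of these values, here and below, cannot be set against log2 values, and their distance from them may be one of base alone. With a replicate block it was -0.46, and BC003808 0.07. With a loess fitted to each grid it was -0.35. Leaving out each replicate gave -0.64 to -0.41 for NM_011570, -0.12 to 0.32 for BC003808, and -0.83 to -0.52 for their difference. BC003808 ranged from -0.18 to 0.44 over all settings and was below 0 in 5 of 24, some of which gave the same value. The difference moved to -0.36 with a loess fitted to each grid, to -0.17 in the authors' values (unknown base), to -1.04 with collagen on Cy5 only and to -0.29 with collagen on Cy3 only. The dye effect changed sign for BC003808 to -0.13 with median centring and -0.0272 in the authors' values. For NM_011570 it changed sign to 0.29 with median centring, 0.0114 with reading 1 only and 0.15 with saturation factors of 0.8 or above. Over all probes, the count past an adjusted p under 0.05 was 0. It was 1 with scaling between arrays, 1 in the authors' values, 0 to 1 when leaving out a replicate (1 without replicate 2), 28 with collagen on Cy5 only and 18 with collagen on Cy3 only. The count past an unadjusted p under 0.05, 268, ranged from 119 to 887. The medians of the focal adhesion, PET and LIM, and genome neighbour lists ranged from -0.14 to -0.02, -0.23 to 0.02 and -0.27 to 0.35. Each median is over the probes tested in that setting, which are not the same probes in all settings. The neighbour median was below 0 with collagen on Cy5 only (-0.27), reading 3 only (-0.08), spots measured in all 3 readings (-0.01) and the authors' values (-0.04). The 3 lists had 0 adjusted calls in every alternative. The cause was not tested for any of these changes. Leaving out pair 3 is the same as leaving out replicate 3. The 24 alternatives are not all separate checks. Fitting every spot on the array left both Tes ratios and the 3 list medians unchanged. Keeping spots measured in all 3 readings left NM_011570 at -0.53. For BC003808, leaving out pair 1 or 2, or taking pairs as replicates, gave the main 0.16. Leaving out replicate 1 or pair 4, or keeping spots measured in all 3 readings, gave one value, -0.12. Leaving out replicate 2 or pair 5 gave 0.29. The arrays of a dye-swap pair did not deviate together from their group means, at correlations of -0.34 to -0.06. Across probes, the ratios of pairs 1 and 4 correlated at 0.0913 and those of pairs 2 and 5 at 0.142. The small number of arrays limits precision throughout.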

Other observations

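The spot of NM_011570 covered 162 to 252 pixels and that of BC003808 79 to 186 pixels over their measured readings. Of the 5 probes most like NM_011570, Prrg2 and Cops4 lie side by side on the array, in grid row 12, and far from NM_011570 in grid row 5.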
